A study of Mus musculus with 43 samples.

Results

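The comparison set knockout T cells recovered from the primary tumour of mice given control IgG against the same cells on the day of transfer (T0), so that no checkpoint antibody was involved. It used the 3 primary tumour IgG samples and the 3 T0 samples, taken by their labels from the 43 samples of an in vivo CRISPR screen of metabolic genes, and all 2078 genes in the table. Every cell in both groups was a CD8+ OT-I T cell, whose receptor recognises an ovalbumin peptide, from Rag2/OT-I mice crossed with Rosa26-Cas9 mice, and had been transduced with a lentiviral sgRNA library carrying CD90.1. T0 was an aliquot of the cells selected for CD90.1 in culture, just before adoptive cell transfer, and had been in no recipient and received no IgG. The tumour cells had spent 7 days in immunocompetent Rosa26-Cas9 hosts bearing an orthotopic pancreatic tumour of KPC_OVA, a line of mouse pancreatic ductal adenocarcinoma cells that expresses chicken ovalbumin, and were sorted as CD90.1+. Control IgG from rat serum was given from the day of transfer. By the study's methods the mice were young adults.

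A pooled knockout screen reads each sgRNA as a barcode in genomic DNA. Cells that divide or survive better without the targeted gene raise the share of its sgRNAs, and cells that need the gene lose it. A transferred CD8+ T cell that meets its antigen divides many times, so genes of protein, nucleotide and lipid synthesis can be needed in any organ, while genes that restrain or drive T cell receptor signalling can move either way. Phosphoinositide 3-kinase (PI3K) makes the membrane lipid PIP3 after receptor engagement, phospholipase C makes diacylglycerol, and diacylglycerol kinases remove it again. The readout counts cells only, so slower division, death and poorer entry into the tumour cannot be told apart, nor can events in the tumour be separated from those of the journey there. As guide DNA carries no RNA, the labelled cell type could not be checked against marker genes. The sgRNA sequences were not used here.

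A gene's value in a library is the mean of log2(signal + 1) over its 5 sgRNAs, less the median over the library's 250 nontargeting sgRNAs. A change of 1 is thus a doubling of share relative to nontargeting cells. Signal is the authors' scaled sgRNA abundance, and since it is not a read count the sequencing depth behind it is unknown. Summed signal lay between 2882462 and 4228882 in T0 and between 2275699 and 3211778 in the tumour libraries. Of all sgRNAs, 0.103 to 0.132% fell below a signal of 10 in T0 and 5.63 to 6.88% in the tumour. The nontargeting sgRNAs were spread more widely in the tumour, with a log2 SD of 1.43 to 1.58 against 1.08 to 1.11 in T0. Taken over genes, which do not replicate one another, the 3 tumour libraries correlated at 0.914 to 0.935. T0 replicates 1 and 2 correlated at 0.833, and T0 replicate 3 stood apart at 0.505 and 0.589, with the genes lost in tumours generally higher there. With the tumour libraries it correlated at -0.127, -0.118 and -0.138, and T0 replicates 1 and 2 at 0.425 to 0.605. Counts of calls, calls lost without it and the medians of the ribosomal protein, RNA polymerase and complex I lists are given below without it as well. Other changes are given with it only. Against T0 replicates 1 and 2 alone the median change of the depleted genes was -2.67, and -2.84 with all T0 libraries. In tumour replicate 3 a single *Cpt1a* sgRNA reached a signal of 63646, which was 2.80% of that library, while the highest sgRNA of every other library of both groups took 0.0776 to 0.175%.

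Depletion was far more frequent than enrichment. At an adjusted p of at most 0.05 (limma, Benjamini-Hochberg over 2078 genes), 9 genes were enriched in the tumour, which is 0.433% of those tested, and 487 were depleted, which is 23.4%. The median change over all genes was -0.28, with 403 genes above 0 and 1675 below. All 3 tumour libraries lay above all 3 T0 libraries for 45 genes (2.17%) and below them for 782 genes (37.6%). Every one of the 9 enriched and 487 depleted genes was among these. A call with 3 libraries in each group makes this likely, so it is no separate support for the calls. Depleted genes had a median change of -2.84, and 146 of them fell by over 4 on the log2 scale while 93 fell by under 1. At least 4 of the 5 sgRNAs were lower in the tumour for 478 of the 487 depleted genes. As the call rests on the mean of the same sgRNAs, this count is no separate support, and it is not given for all genes. For enrichment the values were smaller: only 2 genes rose by over 1.

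**Figure D1:**
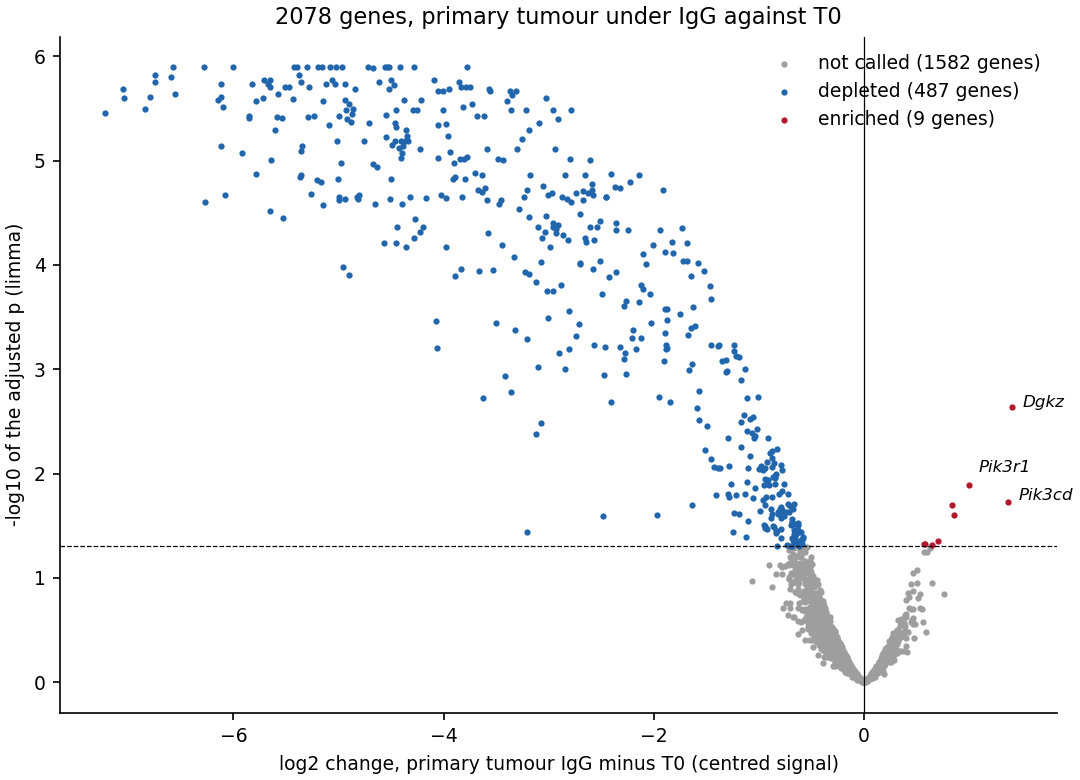
Each point is 1 of 2078 genes, placed by its log2 change (primary tumour IgG minus T0, horizontal axis) and by -log10 of its adjusted p (vertical axis). The 487 depleted genes in blue spread to beyond the -7.04 of *Aldoa*, whereas the 9 enriched genes in red end at 1.41; the dashed line marks an adjusted p of 0.05.

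The calls of enriched genes depended on single libraries of both groups. Without T0 replicate 1, 2 or 3 their number was 4, 3 or 2, all among the 9. Without tumour replicate 1, 2 or 3 it was 9, 12 or 11, of which 4, 4 and 8 were among the 9, whereas the depleted count stayed between 399 and 528. A fit of all 41 libraries with values, whose other organs vary more, called 0 enriched and 240 depleted genes. Among the 9, *Dgkz* alone passed the threshold without each of the 6 libraries in turn. Leaving a library out also weakens the test, so a call can be lost with little change in the estimate. The change of *Tgds*, 0.71 with all libraries, was 0.73, 0.70 and 0.69 without T0 replicates 1, 2 and 3. That of *Pik3cd* moved more, from 1.37 to 1.02 without T0 replicate 3. Of the depleted genes named below, *Pik3c3*, *Mtmr6*, *Plcb3*, *Ganab*, *Man1b1*, *Pigs*, *Fdft1*, *Oxsm*, *Hacd2*, *Oat*, *Cyp4f14* and *Cyp2c38* lost their call without any of several single libraries, *Pigk* and *Hadha* did so without T0 replicate 3, and others are given with their values. Centring on the median of all sgRNAs instead of the nontargeting ones moved the median of all genes from -0.28 to 0.09 and called 57 enriched and 371 depleted genes, so that enriched genes made up 13.3% of calls in place of 1.81%.

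Signalling genes led the enriched knockouts. *Dgkz* encodes diacylglycerol kinase zeta, which ends the diacylglycerol signal of the T cell receptor. Its value was 0.24, -0.23 and -0.46 in T0 replicates 1 to 3 and 1.20, 1.65 and 0.94 in tumour replicates 1 to 3. Every tumour library thus lay well above every T0 library, and the change was 1.41 (s.e. 0.26, adjusted p = 0.00233), or 2.66-fold. The other 9 diacylglycerol kinases were not called and ranged from -0.59 to 0.48. The highest of these was *Dgka*, the other diacylglycerol kinase known to restrain T cell receptor signalling.

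*Pik3cd*, which encodes the delta catalytic subunit of PI3K that predominates in leukocytes, had values of 0.47, 0.46 and -0.61 in T0 and 1.48, 2.0 and 0.95 in the tumour. The groups were apart, although T0 replicate 3 was low, and the change was 1.37 (s.e. 0.35, adjusted p = 0.0186). It missed the threshold without T0 replicate 3 (adjusted p = 0.0558) and without tumour replicate 1 (0.0565) or 2 (0.0628). *Pik3r1*, which encodes the regulatory subunit alpha that stabilises the catalytic subunits, stood at 0.72, 0.47 and -0.04 in T0 and at 1.42, 1.57 and 1.15 in the tumour. Its change was 1.0 (s.e. 0.24, adjusted p = 0.0128), and the adjusted p was 0.0616 without T0 replicate 3.

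*Adcy7*, an adenylyl cyclase that makes cyclic AMP, rose from 0.40, 0.33 and 0.65 to 1.01, 1.19 and 1.76, a change of 0.86 (s.e. 0.24, adjusted p = 0.0252). *B3gnt2* encodes the enzyme that extends poly-N-acetyllactosamine (poly-LacNAc) chains on glycans, and rose from 0.78, 0.74 and 0.23 to 1.38, 1.63 and 1.25. The difference was 0.84 (s.e. 0.22, adjusted p = 0.02). For both genes the highest T0 library lay below the lowest tumour library. *Adcy7* lost its call without T0 replicate 1 (adjusted p = 0.10) or 2 (0.118), and *B3gnt2* without T0 replicate 2 (0.0508) or 3 (0.106) or tumour replicate 2 (0.051).

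The remaining enriched genes changed by less than 0.75 and sat near the threshold. *Tgds*, which encodes a nucleotide sugar dehydratase, rose by 0.71 (s.e. 0.22, adjusted p = 0.0444), from -0.51, -0.56 and -0.59 to 0.55, 0.08 and -0.16. *Hsd3b7*, an enzyme of bile acid synthesis, rose by 0.65 (s.e. 0.21, adjusted p = 0.0488). *Agpat9*, an older symbol of the glycerol phosphate acyltransferase gene *Gpat3*, and *Ptges3*, which encodes a prostaglandin E synthase also known as an HSP90 co-chaperone, each rose by 0.58 (s.e. 0.18, adjusted p = 0.0479). *Ptges3* is named although only 3 of its 5 sgRNAs were higher in the tumour. Each of these 4 genes lost its call without tumour replicate 1 or any T0 library, *Ptges3* also without tumour replicate 3 and the others also without tumour replicate 2. *Tgds*, *Hsd3b7* and *Agpat9* passed the threshold under 5 of 15 alternative settings, *Ptges3* under 6, *B3gnt2* under 9, *Pik3cd*, *Pik3r1* and *Adcy7* under 11 and *Dgkz* under 14.

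**Figure D2:**
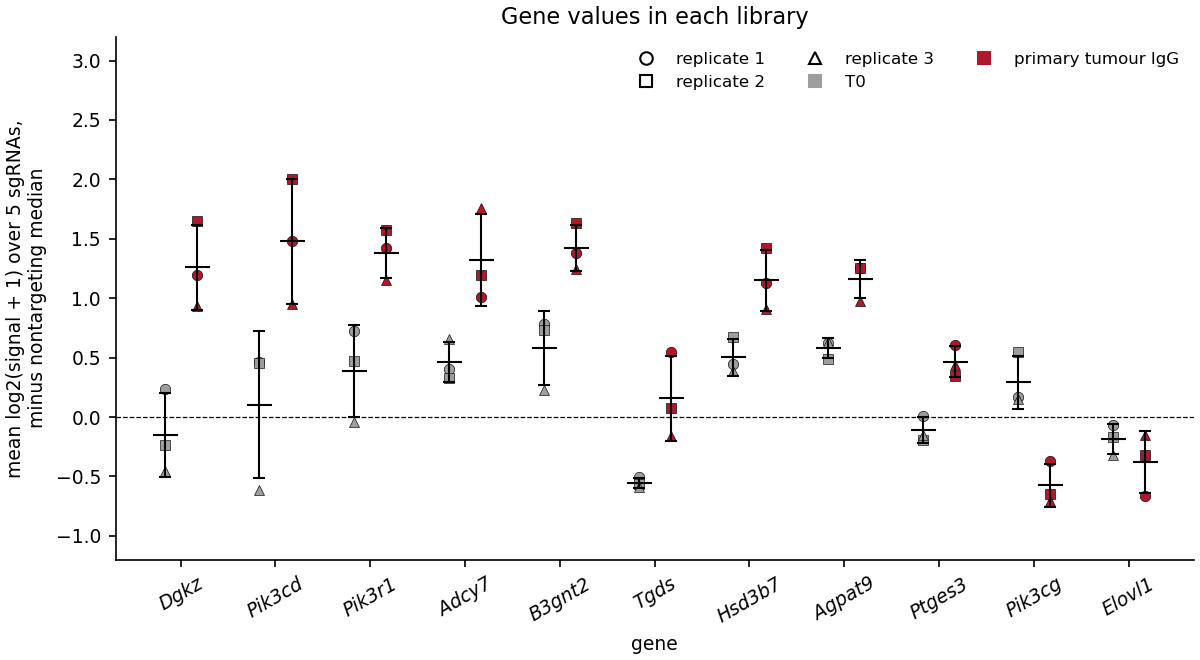
The vertical axis is a gene's mean log2(signal + 1) over 5 sgRNAs minus the nontargeting median; grey marks are T0 and red marks primary tumour IgG libraries, with shapes for replicates 1 to 3 and bars for the mean ± SD (n = 3). The 9 enriched genes, *Dgkz* to *Ptges3*, show no overlap of the groups, *Pik3cg* lies lower in the tumour, and *Elovl1* overlaps.

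Single sgRNAs were tested in a fit of their own, in which 15 of 10640 sgRNAs were enriched (0.141%) and 1472 depleted (13.8%). The 15 enriched sgRNAs lay in 15 different genes, and *Dgkz*, *Pik3cd*, *Pik3r1* and *B3gnt2* each held 1. The 5 sgRNAs of *Dgkz* changed by 1.06, 1.16, 1.30, 1.58 and 1.94, so that each was above 0 and the spread among them was under 1. Genes that were not called held the others, such as *Trdmt1*, *Cyp17a1* and *Acss3*, named after their values were seen. Among the 250 nontargeting sgRNAs none was called enriched and 5 (2%) depleted, and 90% of them changed by between -1.25 and 0.88. Of the 487 depleted genes, 349 held at least 2 depleted sgRNAs and 73 held none. The count of 15 fell to 1, 2 or 0 without T0 replicate 1, 2 or 3 and was 45, 37 or 41 without tumour replicate 1, 2 or 3. The count of 1472 fell to 1092, 1033 or 958 without T0 replicate 1, 2 or 3 and was 1501, 1588 or 1643 without tumour replicate 1, 2 or 3.

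**Figure D3:**
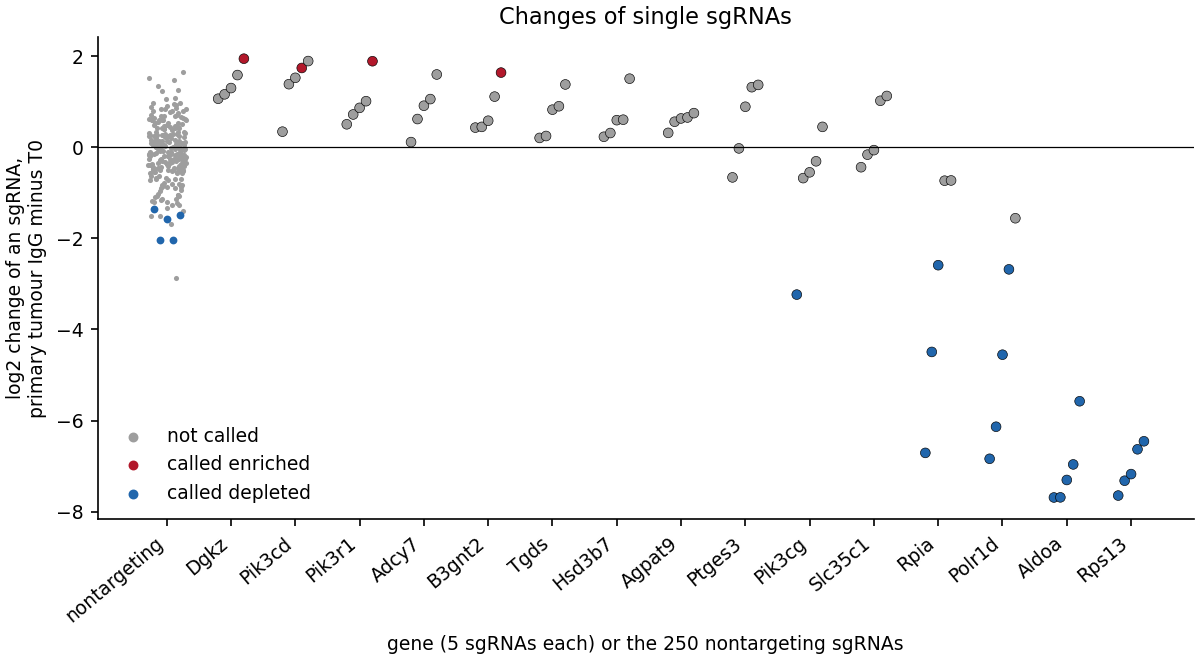
Each point is the log2 change of 1 sgRNA, primary tumour IgG minus T0, for the 250 nontargeting sgRNAs at the left and for 15 genes with 5 sgRNAs each; red and blue mark sgRNAs called enriched or depleted. All 5 sgRNAs of *Dgkz* lie between 1.06 and 1.94, while all 5 of *Aldoa* and of *Rps13* are called depleted.

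Counts of depleted genes in the lists that follow stand against the 23.4% of all genes, and a list near or below that share was depleted no more often than the table at large. Within class I PI3K the subunits moved apart. Of 8 subunit genes, 2 were enriched and 1 depleted, with a median change of 0.11 against -0.28 for all genes. *Pik3cg*, which encodes the gamma catalytic subunit that acts below G protein-coupled receptors, fell from 0.17, 0.55 and 0.15 to -0.37, -0.65 and -0.70. The change was -0.87 (s.e. 0.20, adjusted p = 0.0108), opposite to that of *Pik3cd*, with no overlap. Its sgRNAs were uneven, as 1 of the 5 was called at -3.24 and 1 lay above 0, and the call was lost without T0 replicate 2 (adjusted p = 0.0776). *Pik3ca* (0.14, adjusted p = 0.792) and *Pik3cb* (0.08, adjusted p = 0.833), the broadly expressed catalytic subunits, were not called. Nor were the regulatory subunits *Pik3r2* (-0.38, adjusted p = 0.277), *Pik3r3* (0.35, adjusted p = 0.366) and *Pik3r5* (-0.09, adjusted p = 0.885).

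Phosphoinositide phosphatases were depleted no more often than genes at large. Of 21 phosphoinositide phosphatases, 4 fell and none rose (median -0.23). *Inpp5d*, which encodes the lipid phosphatase SHIP1, fell from 0.08, 0.04 and 0.26 to -1.17, -0.70 and -2.63. Its change was -1.63 (s.e. 0.43, adjusted p = 0.0198), and replicate 3 was the lowest of the tumour libraries. Without T0 replicate 1, 2 or 3 the adjusted p was 0.0507, 0.0516 or 0.0543. *Inpp5k*, another inositol phosphatase, fell by 3.56, and *Mtmr6* by 0.66. *Mtmr1*, named after its values were seen, had the highest change of the list at 0.63 and was not called.

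The 3 lists of other phosphoinositide kinases, phospholipases C and inositol phosphate enzymes had 15.4 to 29.4% of their members depleted, against 23.4% of all genes. *Cdipt*, which joins inositol to lipid to make phosphatidylinositol, fell from -0.28, 0.08 and 0.88 to -4.68, -5.75 and -6.65, a change of -5.92. Among 16 other phosphoinositide kinases, 4 were depleted: *Pi4kb* and *Pi4ka* by -3.33 and -2.12, *Pikfyve* by -1.53 and *Pik3c3*, the class III kinase, by -1.25. The list median was -0.16. Of 13 phospholipases C, 2 fell (median -0.24): *Plcg1*, which acts directly below the T cell receptor, went from 0.02, -0.19 and 0.39 to -1.23, -1.32 and -1.16, a change of -1.31 (s.e. 0.21, adjusted p = 0.000813), and *Plcb3* changed by -0.67. Of 17 inositol phosphate enzymes, 5 fell (median -0.51). Among them, *Itpkb*, the kinase that makes inositol tetrakisphosphate in lymphocytes, went from -0.01, 0.07 and 0.86 to -3.10, -1.69 and -2.70, a change of -2.80 (s.e. 0.38, adjusted p = 0.000275). *Ippk*, an inositol phosphate kinase, changed by -2.97 and *Impa1*, which frees inositol from its phosphate, by -1.68.

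Genes of the machinery that makes and destroys protein were depleted almost throughout. Of 20 genes in the ribosomal protein list 19 were depleted, and the list median was -5.56. *Rps13*, a small subunit protein, fell from -1.14, -0.60 and 0.71 to -7.03, -7.76 and -7.39, a change of -7.05 (s.e. 0.43, adjusted p = 2.05e-06). *Rpl3* changed by -6.80, *Rpl27* and *Rpl36* by -6.75 and *Rps19* by -6.55, all depleted. The large subunit gene *Rpl9* fell from -0.72, -0.61 and 0.74 to -6.28, -5.57 and -5.49. The list median was -0.29, -0.01 and 0.93 in T0 replicates 1 to 3, so that T0 replicate 3 started highest, and without it the median change was -5.14. The gene that was not called, *Rps3a3* (-0.57), is a pseudogene in RefSeq.

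Losses of this size reached the lower end of the scale. For *Rps13*, 14 of the 15 sgRNA values in the tumour lay under a signal of 10 and 0 of 15 in T0. With log2(signal + 10) its change was -4.08 and that of *Aldoa* -4.83, against -7.05 and -7.04 with log2(signal + 1). The 15 largest decreases ran from -3.86 to -4.83 on the log2(signal + 10) scale, and the order among them is not resolved.

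Of the RNA polymerase subunits 25 of 26 were depleted, with a median of -4.38, or -4.25 without T0 replicate 3. *Polr1b*, a catalytic subunit of RNA polymerase I, which transcribes ribosomal RNA, fell from -0.42, -0.18 and 0.80 to -6.41, -6.25 and -5.98, a change of -6.28 (s.e. 0.31, adjusted p = 1.28e-06). *Polr1d*, shared by RNA polymerases I and III, fell from -0.08, -0.05 and 0.63 to -4.86, -3.83 and -3.87, a change of -4.35, with 4 of 5 sgRNAs depleted. *Polr3gl* (-0.28) was the member that was not called. Of 14 proteasome and COP9 signalosome genes 13 fell (median -3.77). *Psmb3*, a subunit of the proteasome core, fell from -0.57, 0.02 and 0.96 to -5.04, -7.55 and -5.81. Both cytosolic tRNA synthetase genes, *Mars* (-6.12) and *Eprs* (-4.94), fell, as did the mitochondrial synthetase genes *Mars2* (-5.16) and *Ears2* (-5.12) and *Mtfmt* (-0.94), which formylates mitochondrial methionyl-tRNA.

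**Figure D4:**
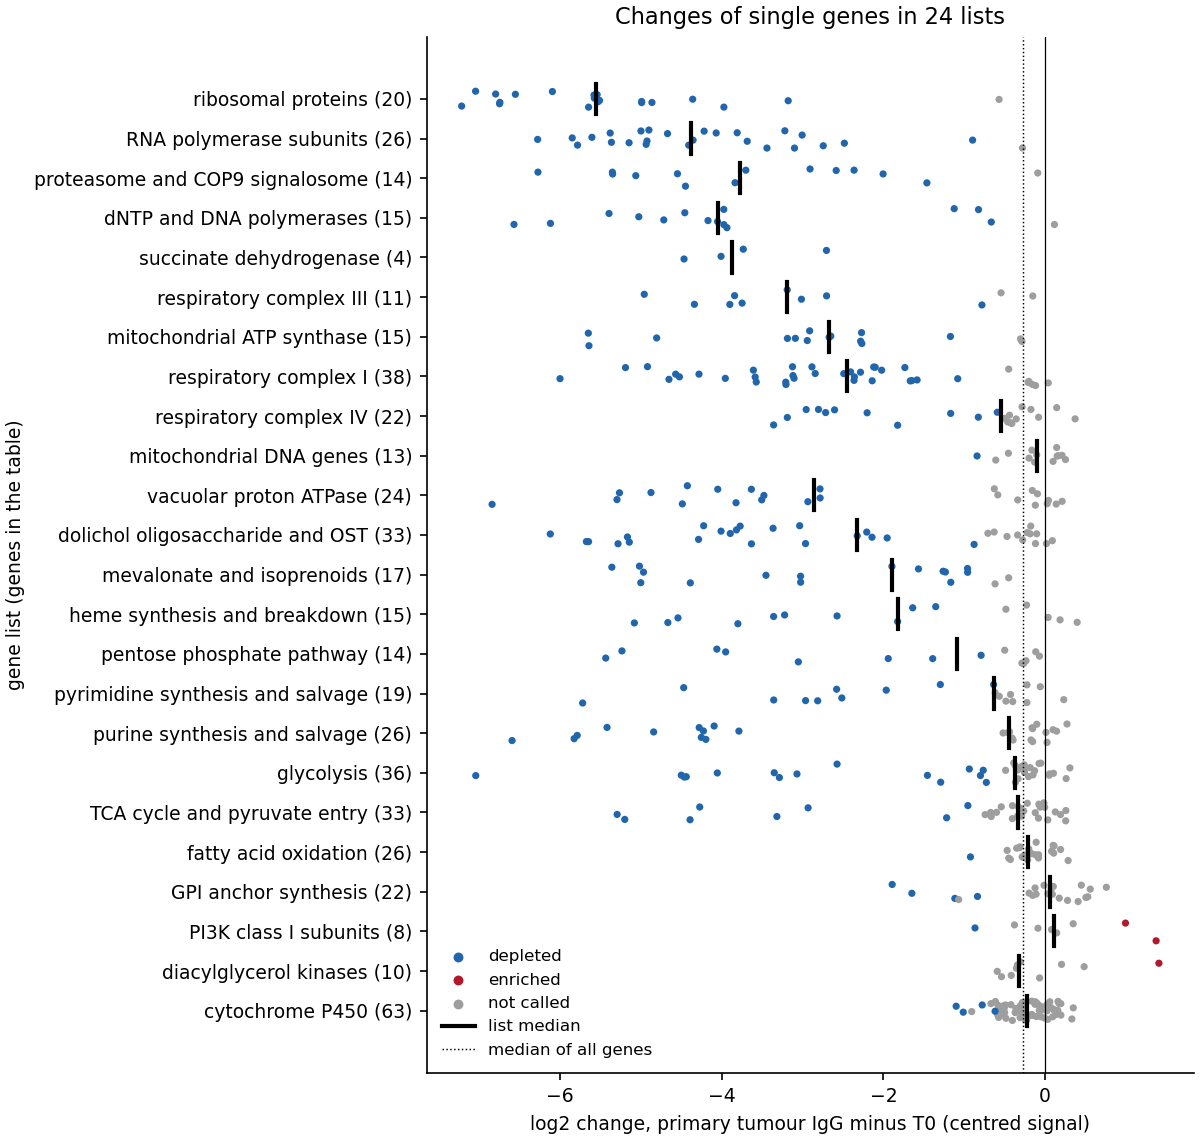
Each point is a gene placed by its log2 change, primary tumour IgG minus T0, in 24 of the 54 gene lists (number of genes in brackets); black bars are list medians and the dotted line the median of all genes, -0.28. Ribosomal protein genes lie furthest left, around -5.56, whereas the mitochondrial DNA genes, fatty acid oxidation and cytochrome P450 lists lie near the dotted line.

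Nucleotide synthesis and DNA replication were lost at named steps. Of 15 genes of deoxynucleotide supply and DNA polymerases 14 fell (median -4.05). *Rrm2* and *Rrm1* encode ribonucleotide reductase, which makes deoxynucleotides. *Rrm2* fell from -0.89, -0.41 and 0.51 to -6.85, -7.07 and -6.58, a change of -6.57, and *Rrm1* fell by 6.12. *Pole* and *Pold1*, catalytic subunits of the replicative polymerases, changed by -5.39 and -5.03, while *Pold4* (0.12) was not called.

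Purine genes were depleted in 11 of 26 cases (median -0.45), and the calls included the de novo pathway. *Ppat*, its first committed enzyme, fell from -0.23, 0.17 and 0.89 to -6.98, -6.00 and -5.98, a change of -6.59 (s.e. 0.35, adjusted p = 1.59e-06). *Gart* (-5.83), *Paics* (-5.79) and *Adsl* (-5.42), which act later in that pathway, fell as well. Of 19 pyrimidine genes 10 fell (median -0.64). *Dut*, which removes dUTP, and *Dtymk*, which makes dTDP, changed by -5.72 and -4.47, and *Ctps* and *Cad*, of CTP and UMP synthesis, by -3.36 and -2.96. *Dhodh*, the step of that pathway in the mitochondrion, changed by -2.58 and is named for its later comparison.

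Nuclear genes of oxidative phosphorylation were depleted in each complex. Depleted were 32 of 38 complex I genes (median -2.45), 4 of 4 succinate dehydrogenase genes (median -3.87), 9 of 11 complex III genes (median -3.19), 11 of 22 complex IV genes (median -0.54) and 13 of 15 ATP synthase genes (median -2.67). *Ndufa2*, of complex I, fell from -0.35, 0.24 and 0.60 to -5.62, -5.85 and -6.05, a change of -6.00 (s.e. 0.26, adjusted p = 1.28e-06). *Sdhb*, the iron-sulfur subunit of succinate dehydrogenase, went from 0.02, 0.55 and 0.28 to -3.63, -5.01 and -3.90. *Uqcrc1* of complex III changed by -4.96, *Cox15*, which makes heme A for complex IV, by -3.36 and *Atp5b*, the catalytic subunit of the ATP synthase, by -5.65. The median of the complex I list was -2.29 without T0 replicate 3.

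Of the genes of the mitochondrial genome few were called. Of the 13 in the library 1 was depleted, and their median was -0.10. This was *COX2*, whose values were 0.02, -0.23 and -0.20 in T0 and -0.45, -1.17 and -1.31 in the tumour, a change of -0.84 (s.e. 0.25, adjusted p = 0.0371) with 3 of 5 sgRNAs lower. The call was lost without any T0 library or tumour replicate 2 or 3. In complex IV, several of the members without a call were the isoforms known from heart, muscle, lung or testis, such as *Cox6a2* (-0.08), *Cox4i2* (0.14) and *Cox8c* (0.37), chosen here after their values were seen. Of 19 mitochondrial carriers 4 fell (median -0.35), among them *Slc25a3* for phosphate (-3.61), *Slc25a26* for S-adenosylmethionine (-3.53) and *Slc25a22* for glutamate (-0.87).

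Among genes of the vacuolar proton ATPase, which acidifies lysosomes, some isoforms were likewise without a call. Of 24 genes 14 fell (median -2.86), led by *Atp6v0c*, the proteolipid subunit, from -0.91, -0.49 and 0.41 to -7.68, -7.68 and -6.15. *Atp6v1b2* (-5.30) and *Atp6v1g1* (-5.27) were depleted. Their isoforms *Atp6v1b1* (-0.34) and *Atp6v1g2* (0.21), known from kidney and brain and named after their values were seen, were not called. The other members without a call are not described, so no rule for isoforms is drawn.

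Glycolysis was depleted in 15 of 36 genes (median -0.37). *Aldoa*, the aldolase of most tissues, fell from 0.12, 0.29 and 1.78 to -6.92, -5.75 and -6.27, a change of -7.04 (s.e. 0.45, adjusted p = 2.53e-06). The brain aldolase gene *Aldoc* (0.05), again named after its values were seen, was not called. *Tpi1* (-4.50), *Pgam1* (-4.46) and *Pkm* (-4.44), of the middle and the last steps, fell. The pentose phosphate pathway, which makes NADPH and ribose phosphate, was depleted in 8 of 14 genes (median -1.09), with *Pgd* at -5.44, *Tkt* at -5.23, *Rpe* at -4.06 and *G6pdx* at -3.95. Of 33 genes of the tricarboxylic acid cycle and pyruvate entry 8 fell (median -0.33), led by *Dlst* (-5.29) and *Ogdh* (-5.20) of the oxoglutarate dehydrogenase complex, with *Dld* at -4.27.

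Glycosylation separated into steps that were lost and steps that were not. Synthesis of the dolichol-linked oligosaccharide and its transfer to protein, the entry to N-glycans, was depleted in 21 of 33 genes (median -2.32). *Dpagt1*, the opening step, fell from -0.67, -0.65 and 0.37 to -6.72, -5.83 and -6.76, a change of -6.12, and *Alg13* (-5.67), *Alg2* (-5.65) and *Rpn1* (-5.28) followed. Of 18 genes of N-glycan trimming and branching 4 fell (median -0.09). *Mgat1*, which opens the way to hybrid and complex N-glycans, fell from -0.59, -0.12 and 0.54 to -5.07, -5.51 and -5.68. The glucosidases *Ganab* and *Mogs* fell by 3.21 and 2.59 and the mannosidase *Man1b1* by 0.69.

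Poly-LacNAc extension held 1 enriched gene, *B3gnt2*, and 2 depleted genes among 13 (median -0.27). The latter were the galactosyltransferases *B4galt1* (-3.78) and *B4galt5* (-2.84). Hexosamine and UDP-sugar supply was depleted in 9 of 21 genes (median -0.17), with *Gfpt1*, the entry step, at -5.09, *Ugp2* at -4.81 and the UDP-galactose transporter *Slc35a2* at -4.75. Of 21 sialic acid genes 5 fell (median -0.24). *Gne*, which starts sialic acid synthesis, fell from -0.10, -0.45 and 0.62 to -4.94, -3.98 and -4.13, and *Cmas* (-3.01), the CMP-sialic acid transporter gene *Slc35a1* (-2.64), *St3gal1* (-1.88) and *Nans* (-1.75) fell less. Of 20 mucin-type O-glycan genes 2 fell (median -0.17), the core galactosyltransferase *C1galt1* (-1.92) and its chaperone *C1galt1c1* (-2.70). None of 10 fucose genes was called (median -0.12).

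Glycosylphosphatidylinositol (GPI) anchors hold proteins such as CD90 at the cell surface, and cells were sorted on CD90.1. Of 22 genes of their synthesis, 4 were depleted and none enriched, with a median of 0.06. All 4 belong to the transamidase that attaches the anchor to proteins. *Gpaa1* fell from 0.55, 0.79 and 0.38 to -1.33, -1.05 and -1.57, a change of -1.89 (s.e. 0.21, adjusted p = 7.54e-05), and *Pigt* fell by 1.65, *Pigk* by 1.12 and *Pigs* by 0.84. The other transamidase gene, *Pigu* (-1.07), was not called. *Pigx*, named after its values were seen, had the highest change at 0.76 (adjusted p = 0.14) and held an sgRNA called enriched. The part of the CD90.1 sort in these values was not tested.

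Isoprenoid synthesis was the lipid pathway with the largest share of depleted genes. Of 17 genes of the mevalonate pathway and its products 15 fell (median -1.89). *Hmgcs1*, at its entry, went from -0.18, -0.01 and 0.64 to -6.26, -4.20 and -5.16, a change of -5.36, and *Pmvk* (-5.02), *Ggps1* (-5.00) and *Mvd* (-4.97) fell too. The branch to cholesterol was depleted in 6 of 15 genes (median -0.40), with smaller changes: *Msmo1* -1.90, *Sqle* -1.68, *Lss* -1.46 and *Fdft1* -1.19.

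In sphingolipid metabolism 5 of 32 genes fell (median -0.36). *Kdsr*, of the early steps, went from -1.19, -0.59 and 0.37 to -6.43, -5.68 and -4.0, *Sptlc1* and *Sptlc2*, which encode serine palmitoyltransferase, changed by -4.56 and -4.32, and *Ugcg*, for glucosylceramide, by -3.57. Of 31 glycerophospholipid genes 1, *Agpat9*, was enriched and 8 fell (median -0.23), with *Pisd* at -4.51, *Cds2* at -3.41, *Pcyt2* at -3.30 and *Pgs1* at -3.07. None of 4 ether lipid genes was called (median -0.35).

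Fatty acid synthesis and activation was depleted in 7 of 16 genes (median -0.37), among them *Acaca* (-2.43) and *Fasn* (-1.31) of the cytosol and *Mcat* (-1.38) and *Oxsm* (-1.28) of the mitochondrion. Of 26 fatty acid oxidation genes 1 fell, *Hadha* (-0.92), and the median was -0.21. *Cpt1a*, which brings long-chain fatty acids into that pathway, changed by 0.19 and was not called, and its value in tumour replicate 3 carried the single very high sgRNA described above. Among 12 genes of fatty acid elongation 3 fell (median -0.20), *Tecr* (-1.45), *Hsd17b12* (-1.05) and *Hacd2* (-0.59), of the steps that follow the elongases. *Elovl1*, an elongase of very long chains, stood at -0.06, -0.17 and -0.32 in T0 and at -0.66, -0.32 and -0.15 in the tumour. The groups overlapped, and the change was -0.19 (s.e. 0.20, adjusted p = 0.573).

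Methionine and folate metabolism lost a few strong genes. Of 16 methionine cycle genes 3 fell (median -0.18). *Mat2a*, which makes S-adenosylmethionine, went from -1.10, -0.45 and 0.72 to -5.15, -7.14 and -6.78, a change of -6.08 (s.e. 0.57, adjusted p = 2.16e-05), *Ahcy*, which clears its product, changed by -5.85 and *Mtr* by -1.87. Serine, glycine and folate genes were depleted in 8 of 20 cases (median -0.57), with *Mthfd1* at -4.71, the folate carrier gene *Slc19a1* at -2.90 and *Fpgs* at -2.45. Of 8 polyamine genes 2 fell (median -0.39), *Amd1* (-1.88) and *Srm* (-1.31).

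Enzymes that use methyl groups were depleted in part. Of 23 histone lysine methyltransferases 8 fell (median -0.38), with *Kmt5a* at -2.66, *Dot1l* at -2.47, *Setd1a* at -2.36 and *Kmt2a* at -2.22. *Dnmt1*, the maintenance DNA methyltransferase, fell from -0.38, -0.26 and 0.68 to -4.45, -3.85 and -4.71 and was the 1 depleted gene among 4 DNA and other methyltransferases (median -0.02).

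Cofactor genes were depleted in 14 of 29 cases (median -0.60): *Ppcs* (-5.04) and *Coasy* (-3.67) make coenzyme A, *Lias* (-4.50) lipoate and *Nampt* (-4.38) NAD. Of 15 heme genes 10 fell (median -1.82), including *Fech* (-5.08), *Alas1* (-4.67), *Urod* (-4.54) and *Cpox* (-3.80) of synthesis. Glutathione, thioredoxin and selenium genes were depleted in 9 of 26 cases (median -0.44), among them *Txnrd1* (-2.83), *Gpx4* (-2.54), which protects membranes from lipid peroxides, and *Sepsecs* (-2.67) and *Sephs2* (-2.46), which make selenocysteine.

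Of 28 amino acid transporter genes 5 fell (median -0.24), a smaller share than the 23.4% of all genes. *Slc7a5*, the leucine transporter of activated T cells, fell from 0.07, 0.12 and 0.22 to -3.79, -3.49 and -5.67, a change of -4.45, and its partner *Slc3a2* changed by -3.89. *Slc7a1*, an arginine transporter, and *Slc38a1*, a glutamine transporter, fell by 2.07 and 1.87. Of 22 glutamine, arginine, aspartate and proline genes 3 fell (median -0.26), among them *Aldh18a1* (-1.03) and *Oat* (-0.64). None of 13 ectonucleotidase genes was called (median -0.25).

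In families of drug metabolism few genes were called. Of 63 cytochrome P450 genes 4 fell (median -0.23), *Cyp2d11* (-1.10), *Cyp2a5* (-1.01), *Cyp2c38* (-0.78) and *Cyp4f14* (-0.62). Of 18 UDP-glucuronosyltransferases 1 fell (median -0.18), *Ugt1a1*, from 0.28, 0.52 and 0.32 to -1.64, -1.55 and -1.14, a change of -1.82 (s.e. 0.20, adjusted p = 7.69e-05). In both families some genes are near copies of each other, and cutting by an sgRNA at more than 1 of them was not tested.

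Against the tumours of mice given anti-PD-1, which blocks the PD-1 checkpoint, few genes differed. At an adjusted p of at most 0.05, 3 of 2078 genes differed (0.144%), each higher under IgG, and 171 had an unadjusted p under 0.05, 81 higher and 90 lower under IgG. *Slc35c1*, the GDP-fucose transporter gene, had values of 0.02, -0.44 and 0.06 under IgG and -2.23, -1.45 and -2.96 under anti-PD-1, a difference of 2.09 (s.e. 0.38). Its IgG values lay near those of T0, at -0.48, -0.32 and -0.44. *Rpia*, of the pentose phosphate pathway, stood at -2.81, -1.98 and -2.33 under IgG and at -3.91, -4.60 and -4.37 under anti-PD-1, a difference of 1.92 (s.e. 0.34). *Atp5d*, of the ATP synthase, differed by 1.81 (s.e. 0.33), from -3.98, -3.54 and -3.15 to -5.18, -5.35 and -5.57. The adjusted p was 0.0319 for each in limma. For all 3 genes the groups were apart, which their call in this comparison favours, and *Rpia* and *Atp5d* were depleted against T0 under either antibody. No gene was called when any single IgG library or anti-PD-1 replicate 3 was left out.

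The enriched genes were not shown to differ between the antibodies. *Pik3cd* lay at 1.48, 2.0 and 0.95 under IgG and at 2.16, 3.24 and 3.23 under anti-PD-1, a difference of -1.40 (s.e. 0.38, adjusted p = 0.347). The groups did not overlap, but the call was not made. *Dgkz* differed by -0.19 (adjusted p = 0.928), *Pik3r1* by -0.57 (adjusted p = 0.696) and *B3gnt2* by -0.50 (adjusted p = 0.769). *Agpat9* was the reverse, 1.16 higher under IgG (s.e. 0.31, adjusted p = 0.347), with anti-PD-1 values of 0.20, -0.25 and 0.05. Changes against T0 share the T0 libraries and are therefore given side by side only: *Dgkz* 1.41 under IgG and 1.60 under anti-PD-1, *Pik3cd* 1.37 and 2.77, *Adcy7* 0.86 and 0.71, *Hsd3b7* 0.65 and -0.08.

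**Figure D5:**
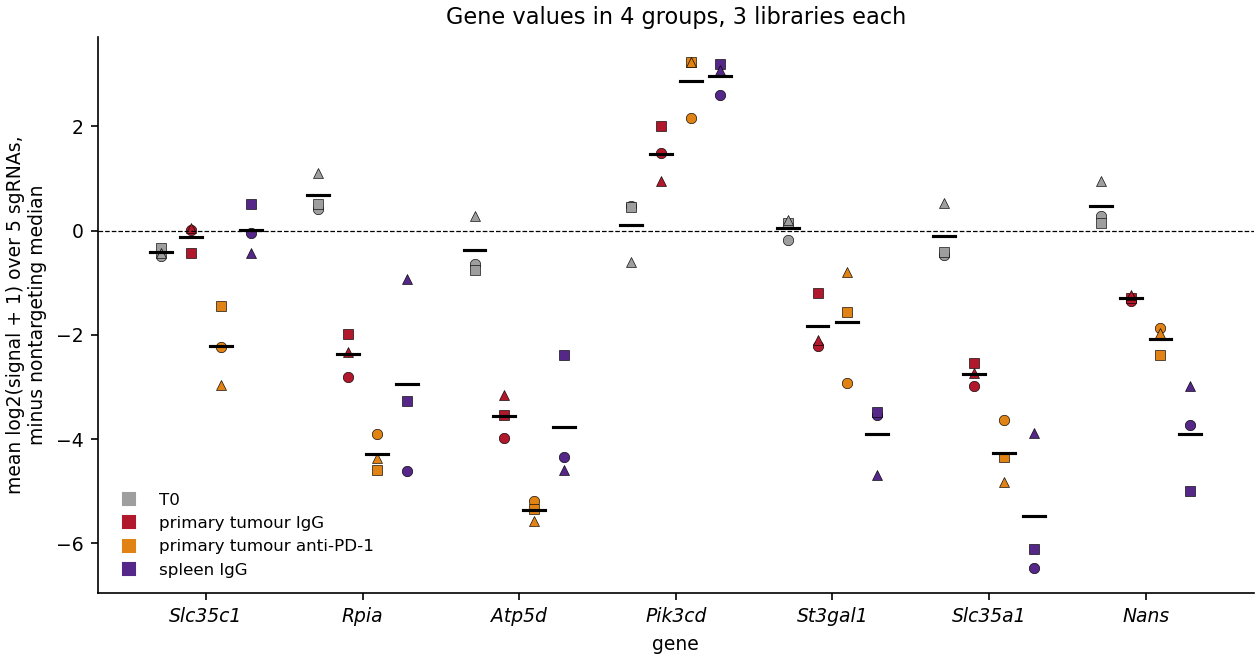
The vertical axis is the mean log2(signal + 1) over 5 sgRNAs minus the nontargeting median; each mark is 1 library of T0 (grey), primary tumour IgG (red), primary tumour anti-PD-1 (orange) or spleen IgG (purple), and short bars are means (n = 3). *Slc35c1* is low under anti-PD-1 alone among these 4 groups, and *Nans* is lower in each spleen library than in each tumour library.

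Against the spleens of the IgG-treated group, 0 of 2078 genes passed in limma without pairing (0%), while 139 had an unadjusted p under 0.05, 91 higher and 48 lower in the tumour. Tumour and spleen libraries of the same replicate number deviated together, with correlations of 0.15, 0.143 and 0.124, and with the number as a block 4 genes passed: *Pgk1*, *Dhodh*, *Nans* and *Slc35a1*. Without pairing, 1 gene was called when spleen replicate 3 was left out. The genes described here were chosen after their values were seen. *Pgk1*, of glycolysis, was lower in the tumour at -3.69, -4.52 and -4.13 than in the spleen at -1.68, -1.99 and -1.62, a difference of -2.35. *Dhodh*, of pyrimidine synthesis, stood at -1.90, -1.98 and -2.67 in the tumour and at 0.50, -0.39 and 0.25 in the spleen, a difference of -2.30. Neither gene overlapped between the organs, which such a choice favours. The adjusted p was 0.243 for both without pairing, and with the block 0.0276 for *Pgk1* and 0.0374 for *Dhodh*.

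A few genes of sialic acid and O-glycans lay higher in the tumour than in the spleen, as did genes of other lists. Of 21 sialic acid genes 3, and of 20 mucin-type O-glycan genes 3, had an unadjusted p under 0.05 in that direction and none in the other. Of all 2078 genes 91 did so, and 48 in the other direction. Medians of these lists were 0.29 and 0.24 beside 0.14 for all genes. The pattern was not particular to them. Counts were 3 of 18 for N-glycan trimming and branching (median 0.46), 3 of 21 for hexosamine and UDP-sugars (0.42) and 3 of 24 for the vacuolar proton ATPase (0.15), with none lower. Other lists went the other way. Lower in the tumour with none higher were 4 of 19 pyrimidine genes, 3 of 17 mevalonate and isoprenoid genes and 3 of 33 tricarboxylic acid cycle genes. Of 12 fatty acid elongation genes 4 were lower and 1 higher. *Nans*, which makes sialic acid phosphate, stood at -1.34, -1.29 and -1.23 in the tumour and at -3.73, -5.00 and -2.98 in the spleen, a difference of 2.62 (adjusted p = 0.243, with the block 0.0276). *Slc35a1* stood at -2.98, -2.55 and -2.74 in the tumour and at -6.47, -6.11 and -3.88 in the spleen, a difference of 2.73 (adjusted p = 0.418, with the block 0.0276). *St3gal1* differed by 2.07 and *C1galt1* by 1.61 (adjusted p = 0.418 for each), and neither was called with the block. For each of these genes the organs were apart, which their choice after the values were seen favours. *Slc6a6*, the taurine transporter gene, differed by 2.13 (adjusted p = 0.243). Among the enriched genes, *Pik3cd* was 1.49 lower in the tumour (s.e. 0.41, adjusted p = 0.467) and *Adcy7* 1.09 higher (adjusted p = 0.618), and neither was called. The spleen libraries had 8.55 to 12.9% of sgRNAs below a signal of 10, more than the tumour, and the part of this in the differences was not tested.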

How the data were processed

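Genomic DNA of transduced OT-I T cells was sequenced for sgRNAs. The deposited values are signal: the authors counted sgRNAs with MAGeCK, scaled libraries to the nontargeting sgRNAs and corrected batches between organs with ComBat, whose settings are not given in the sources used here. Such correction can pull groups together or apart and leaves no depth to compute from, so no count test, interval or floor was used. Samples were grouped by their titles. The labels call the 3 samples of a group biological replicates, and whether a number marks a shared run is not stated. By correlated deviations from the group means, the numbers paired tumour with spleen (every same-number correlation over 0.1). With anti-PD-1 tumours every same-number correlation was below 0. For T0 they were 0.0769, 0.0224 and 0.113, which does not settle whether T0 and tumour libraries were paired. The main fit was unpaired, and with the number as a block 5 enriched and 462 depleted genes were called.

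Values were transformed as log2(signal + 1), taken as a mean per gene (5 sgRNAs) and centred with the nontargeting median. The comparison was fitted in limma 3.58.1 (R 4.3.3) on the 6 libraries, with Benjamini-Hochberg adjustment over 2078 genes and a threshold of 0.05; the other comparisons were fitted in the same way on their own 6 libraries. The code was tested on simulated data. The gene lists and members were chosen with earlier results of these data known. Genes were named by rule: the 12 largest increases and 15 largest decreases among called genes with no overlap and at least 4 sgRNAs in that direction, up to 4 called genes in each direction per list, class I PI3K subunits, genes the study names, and up to 5 called differences in each direction with other groups. Other genes, among them the uncalled list members *Dgka*, *Rps3a3*, *Polr3gl*, *Pold4* and *Pigu*, were named after their values were seen. Alternatives changed the pseudocount, the centring, the sgRNA summary, a filter on low sgRNAs, the libraries fitted, the variance prior, a replicate block and each library in turn. Symbols were matched to RefSeq (GRCm38.p6) for 2072 genes, and no coordinates are given. Some genes that this rule names are not reported here.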

Additional observations from a re-analysis of the deposited data

Results flagged for a closer look

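The IgG and anti-PD-1 tumours, each compared with the same T0 libraries, differed in 3 genes by a direct test of the difference between the antibodies: *Slc35c1* by 2.09, *Rpia* by 1.92 and *Atp5d* by 1.81 on the log2 scale, each higher under IgG and each at an adjusted p of 0.0319 in limma. All 3 IgG libraries lay above all 3 anti-PD-1 libraries for each gene, which the call in this test favours. Under the 15 alternatives the difference ranged from 1.20 to 2.47 for *Slc35c1*, from 0.93 to 2.61 for *Rpia* and from 0.95 to 2.90 for *Atp5d*, and passed the threshold under 7, 4 and 4 of them.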

How the results depend on the processing

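The directions of the 194 named called genes held under every alternative run, and 288 of their 2909 values missed the threshold. Among all 9 enriched and 487 depleted genes, 1 changed sign with the sgRNA median and 1 with the lowest 10% of sgRNAs left out. Enriched genes numbered 9 as reported, 2 without centring, 57 with centring on all sgRNAs, 5 with the lowest 10% of sgRNAs left out, 0 with all libraries in 1 fit, 14 with a trended robust prior, 5 with the replicate block and 2 to 12 with 1 library left out. Depleted genes numbered 240 with all libraries and 371 to 528 otherwise. The median change of all genes was -0.28, -0.52 without centring and -0.16 with the nontargeting mean. Genes differing from anti-PD-1 numbered 1 with log2(signal + 10), 0 with the sgRNA median, the filter or all libraries, and 0 to 2 with 1 library left out. From the spleen they numbered 2 with log2(signal + 10) and without centring, 4 with the sgRNA median and with the block, and 0 to 1 with 1 library left out (1 without spleen replicate 3). Enriched sgRNAs numbered 23 with log2(signal + 10), 7 with the block and 0 to 45 with 1 library left out, and depleted sgRNAs 958 to 1643. The cause was not tested.

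Some genes without a call changed sign: with the sgRNA median *Pik3cb* (-0.45), *Elovl1* (0.041) and *Cpt1a* (-0.30), without centring *Pik3cb* (-0.17), *Pik3ca* (-0.10), *Cpt1a* (-0.054) and *Aldoc* (-0.19), with the nontargeting mean *Pik3r5* (0.029), and with centring on all sgRNAs *Elovl1* (0.18) and *Pik3r5* (0.28). With 1 library left out, *Pik3ca* ran from -0.20 to 0.35, *Pik3cb* from -0.057 to 0.18, *Pik3r5* from -0.28 to 0.26, *Cpt1a* from -0.45 to 0.61 and *Aldoc* from -0.15 to 0.27.

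The replicate numbers were not taken to pair tumour with T0 or with anti-PD-1 tumours, since deviations of same-numbered libraries correlated at 0.0769, 0.0224 and 0.113, and at -0.0919, -0.0574 and -0.0979. With the block, 5 of the 9 enriched and 457 of the 487 depleted genes kept their call, with 5 and 462 called. T0 replicate 2 was about as close to tumour replicate 1 (0.0225), while T0 replicates 1 and 3 were closest to the tumour replicate of their own number. Pairing of tumour with T0 is therefore not settled.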

Other observations

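Gene groups outside the lists of the report were also depleted. They were grouped after their values were seen and are given as descriptions. Of all genes 23.4% were depleted, and 97 depleted genes lay in no list. Grouping after the values favours full counts, so these are no separate result. All 5 nuclear pore genes fell in the tumour: *Nup93* (-4.82), *Nup205* (-4.52), *Nup98* (-2.24), *Nup54* (-2.17) and *Nup133* (-1.49). So did the 3 genes of the COPI coat, which carries vesicles from the Golgi to the endoplasmic reticulum, *Copa* (-4.98), *Copz1* (-2.27) and *Copb1* (-2.11). Signal peptidase, which trims secreted proteins, lost 4 of 5 genes, *Spcs3* (-3.86), *Spcs2* (-3.44), *Spcs1* (-1.43) and *Sec11a* (-0.65), while *Sec11c* (-0.66) was not called.

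Protein prenylation uses the isoprenoids of the mevalonate pathway. Its transferase subunit genes *Fnta* (-4.41) and *Fntb* (-2.63) and the methyltransferase gene *Icmt* (-1.87) fell, and the proteases *Rce1* (-0.23) and *Zmpste24* (-0.02) were not called. *Nfs1* (-4.54), of iron-sulfur cluster assembly, fell.

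The library holds 10 genes that RefSeq lists as pseudogenes, of which 5 were depleted: *Gapdh-ps15* (-6.14), *Gm4459* (-4.42), *Gm13882* (-2.58), *Gm6091* (-1.39) and *Gm6822* (-1.37). *Gapdh-ps15* went from -0.39, -0.25 and 1.07 to -6.54, -5.84 and -5.63. Sharing of sgRNA sites with the parent genes was not tested, so these values are uncertain.

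The *Cpt1a* sgRNA that reached 63646 in tumour replicate 3 stood at 2204 and 355 in tumour replicates 1 and 2, and at 1970, 607 and 687 in T0.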
